A study of Homo sapiens with 6 samples.

Results

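The retromer and its sorting nexin partners are represented here by the mRNAs of 10 genes: the core subunits VPS35, VPS26A, VPS26B and VPS29, the SNX-BAR proteins SNX1, SNX2, SNX5 and SNX6, and the cargo adaptors SNX3 and SNX27. They were taken by symbol from the 60676 genes of the deposited count table, each symbol matched 1 gene ID, and all 10 passed the filter on low counts together with 15546 genes in all. RNA was recovered from 6 pulldowns out of HEK 293 lysate; HEK 293 is a human line of embryonic kidney origin, grown here in suspension, and the labels name no genetic change in it. The bait was GST alone, the affinity tag, in 3 libraries (GST 1 to 3) and the GST-tagged FERRY complex (GST-Ferry complex in the labels), which binds the GTPase RAB5 on early endosomes, in the other 3 (GST-Ferry 1 to 3). Bait bound to glutathione resin was incubated with lysate for 1.5 h and washed, so a value describes RNA held on purified bait in a lysate, not RNA at endosomes of living cells. The table names its columns control and sample. Control was read as GST and sample as GST-Ferry, with the numbers kept, and this reading is an assumption. The 5 FERRY subunit genes together took 0.036% to 0.050% of counts in the control columns. In sample columns 1, 2 and 3 they took 0.249%, 2.72% and 5.35%. TBCK, PPP1R21 and C12orf4 had log2 fold changes of sample over control of 5.3, 8.8 and 6.7. CRYZL1 (-0.495) and GATD1 (0.118), with overlapping groups, did not follow. The numbering could not be checked in this way.

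Retromer recycles membrane proteins out of endosomes. VPS35 is the curved scaffold that holds a VPS26 subunit at one end and VPS29 at the other, and VPS26A and VPS26B are alternative forms of the arrestin-like subunit. SNX1 or SNX2 pairs with SNX5 or SNX6 into dimers that bind phosphoinositides through PX domains and bend membrane through BAR domains, SNX3 recruits retromer to early endosomes, and SNX27 links cargo with PDZ-binding motifs to retromer.

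Because 3 pairs of members are paralogs, the separability of their reads was examined first on the coding sequences of their principal transcripts in GENCODE 29. The coding sequences were 64.9% identical for VPS26A and VPS26B, 65.7% for SNX1 and SNX2 and 66.9% for SNX5 and SNX6. The longest run of bases shared anywhere was 10, 17 and 17 bases, and 0 of the 955, 1540 and 1186 words of 30 bases in VPS26A, SNX1 and SNX5 occurred in their partner. The stretches below surround the longest shared run within the alignment of each pair, with that run in capitals and up to 20 bases on each side, and show how soon the paralogs part. Positions count from the A of the start codon, and run from 101 to 148 in VPS26A, 95 to 142 in VPS26B, 878 to 934 in SNX1, 869 to 925 in SNX2, 888 to 944 in SNX5 and 927 to 983 in SNX6.
VPS26A: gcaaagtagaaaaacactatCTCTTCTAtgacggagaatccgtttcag
VPS26B: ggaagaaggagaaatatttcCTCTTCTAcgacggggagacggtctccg
SNX1: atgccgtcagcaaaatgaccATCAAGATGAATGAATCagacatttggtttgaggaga
SNX2: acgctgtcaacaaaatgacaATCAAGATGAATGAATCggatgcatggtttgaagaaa
SNX5: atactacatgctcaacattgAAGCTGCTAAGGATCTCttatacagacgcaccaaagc
SNX6: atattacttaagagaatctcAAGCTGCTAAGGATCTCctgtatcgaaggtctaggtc

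Library totals ran from 2454538 counts in GST-Ferry 3 to 10466520 in GST 2, and the counts of single members from 136 (VPS29 in GST-Ferry 3) to 2469 (SNX5 in GST 2). GST 3 stood apart from the other libraries, at -56.4 on the first principal component against -13.4 and -11.2 for the other GST libraries, and GST-Ferry 1 lay nearest to GST at 5.78, against 34.2 and 41.0 for GST-Ferry 2 and 3. All 6 listed HEK 293 markers were in the tested set, led by VIM. Of 8 markers of blood, liver, muscle, skin and connective tissue none passed the filter, and HBA2, CD3E and KRT5 had 0 counts in every library. Listed nuclear-retained lncRNAs took 1.21% to 1.38% of all counts, FERRY subunit reads included, with GST and 0.773% to 1.05% with GST-Ferry. MALAT1, the most abundant of them, had a log2 fold change (GST-Ferry over GST) of -0.61 (edgeR adjusted p = 0.182). NEAT1 was at -0.02 and KCNQ1OT1 at 0.09, while OIP5-AS1, high in GST 3 alone, was at -0.66. The part of these lncRNAs in the results below was not tested. Nothing in the labels states separate cultures for the replicates, and the p-values therefore cover only the spread among these 6 libraries, which may be technical.

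None of the 10 mRNAs was called enriched or depleted on GST-Ferry. VPS26B was the 1 member of 10 whose GST-Ferry libraries all lay above its GST libraries, 1.42-fold on average, and 0 lay wholly below. Over all tested genes 14.9% lay wholly above and 12.2% wholly below. VPS35, VPS26A, VPS29, SNX5, SNX6, SNX3 and SNX27 had values in GST 3 higher than in any GST-Ferry library. SNX5, the most abundant member, averaged 172.6 ± 16.3 CPM on GST-Ferry against 220.3 ± 34.1 on GST (mean ± SD, n = 3 each), with groups that overlapped. CPM are read counts divided by the scaled total of their library, and a gene is called where edgeR's quasi-likelihood p, after Benjamini-Hochberg adjustment over all tested genes, is under 0.05.

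By that test 0 of 10 members were enriched and 0 depleted, against 0.592% and 0.0322% of all tested genes. At an unadjusted p under 0.05 that test put 1 member higher and 0 lower, against 11.3% and 8.05% of all genes. DESeq2, which called 3.43% of all genes enriched and 1.14% depleted, called 0 members, and so did limma-voom, which called 0.0901% enriched. The members' log2 fold changes (GST-Ferry over GST) ran from -0.35 to 0.51 with a median of 0.02, beside a median of -0.03 over all tested genes. Of the 10, 6 were above 0 and 4 below, but 2 were above 0 without GST 2 and 3 without GST-Ferry 2. Together the members took 0.0982% to 0.1155% of counts with GST and 0.0934% to 0.108% with GST-Ferry.

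**Figure D1:**
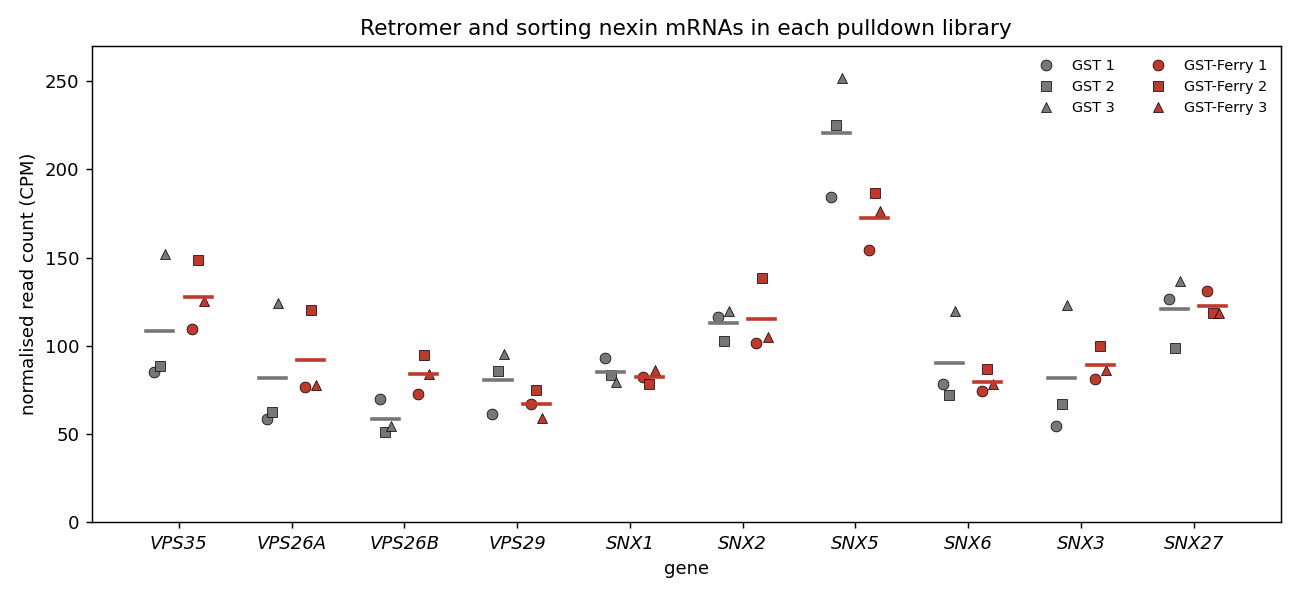
Normalised read count (CPM, vertical axis) of each member in each of the 6 libraries, with GST in grey, GST-Ferry in red, marker shape giving the replicate number and horizontal bars the group means. GST 3 is the highest of all libraries for 7 of the 10 genes, and VPS26B alone has groups that do not overlap. Over all tested genes, 14.9% lie wholly higher and 12.2% wholly lower with GST-Ferry.

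In the retromer core, the scaffold VPS35 had 85.0, 88.4 and 152 CPM in GST 1, 2 and 3. It had 109.7, 148 and 125 CPM in GST-Ferry 1, 2 and 3. All GST-Ferry values were above GST 1 and GST 2 and below GST 3. The log2 fold change was 0.24 ± 0.25 (SE), with a 95% interval of the fold from 0.815 to 1.70 and an edgeR adjusted p of 0.625. VPS35 lies on chromosome 16 (46656132 to 46689518, minus strand, GRCh38).

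VPS26A, on chromosome 10 (69123512 to 69172861, plus strand), showed the same order of GST libraries. It had 58.7, 62.3 and 124.5 CPM in GST 1, 2 and 3, and 76.8, 120.5 and 77.9 CPM in GST-Ferry 1, 2 and 3. GST 3 and GST-Ferry 2 were about level and far above the rest. The log2 fold change was 0.16 ± 0.30 (edgeR adjusted p = 0.792), the widest standard error of the members, with a fold between 0.72 and 1.74 in the 95% interval.

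VPS26B, on chromosome 11 (134224645 to 134247792, plus strand), had 70.0, 51.2 and 54.8 CPM in GST 1, 2 and 3. With GST-Ferry 1, 2 and 3 it had 72.7, 94.7 and 83.9 CPM. The groups did not overlap, by a narrow gap between GST 1 and GST-Ferry 1; 14.9% of all tested genes had every GST-Ferry library above every GST library. The log2 fold change was 0.51 ± 0.21 (95% interval 0.07 to 0.95), with an unadjusted p of 0.0278 and an edgeR adjusted p of 0.205. Exons of VPS26B share 249 bases, or 3.84% of its exon length, with NCAPD3 on the opposite strand, a condensin subunit gene with 8738 counts over the 6 libraries against 2582 for VPS26B. NCAPD3 itself stood at 0.27 ± 0.19 on the log2 scale (edgeR adjusted p = 0.454). The strand setting of the counting is not given in the sources used here, and the part of such reads was not tested. The pseudogene VPS26BP1 took 59 counts, equal to 2.29% of those of VPS26B.

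VPS29, the metallophosphoesterase-fold subunit that also binds retromer regulators, was the core member with a fold change below 0. It had 61.1, 85.5 and 95.3 CPM in GST 1, 2 and 3 and 67.3, 74.8 and 59.2 CPM in GST-Ferry 1, 2 and 3. The groups overlapped through the low value of GST 1. Its log2 fold change was -0.26 ± 0.22, with a fold between 0.603 and 1.15 and an edgeR adjusted p of 0.523. VPS29 lies on chromosome 12 (110491097 to 110502117, minus strand).

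Among the SNX-BAR mRNAs, SNX1 (chromosome 15, 64094123 to 64146090, plus strand) had 93.2, 83.4 and 79.7 CPM with GST 1, 2 and 3 and 82.1, 78.4 and 86.6 CPM with GST-Ferry 1, 2 and 3. Its groups overlapped, with a log2 fold change of -0.05 ± 0.19. The 95% interval of the fold for SNX1 ran from 0.731 to 1.27. Its partner SNX2 (chromosome 5, 122774996 to 122830108, plus strand) had 116, 103 and 119.6 CPM in GST 1, 2 and 3. In GST-Ferry 1, 2 and 3 SNX2 had 102, 138 and 105 CPM, where GST-Ferry 2 was the highest of all libraries. For SNX2 the log2 fold change was 0.02 ± 0.20 and the interval of the fold 0.757 to 1.37.

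SNX5 (chromosome 20, 17941597 to 17968980, minus strand) had 184, 225 and 252 CPM in GST 1, 2 and 3 against 155, 187 and 177 CPM in GST-Ferry 1, 2 and 3. Only GST 1 fell within the range of GST-Ferry. The log2 fold change of -0.35 ± 0.20 did not pass (edgeR unadjusted p = 0.0954, adjusted p = 0.344), and its interval allows a fold between 0.583 and 1.05. SNX6 (chromosome 14, 34561094 to 34630183, minus strand) had 78.2, 72.3 and 119.6 CPM with GST 1, 2 and 3 and 74.3, 86.7 and 78.3 CPM with GST-Ferry 1, 2 and 3. GST 3 was again the high library, and the other 5 lay close together. For SNX6 the log2 fold change was -0.17 ± 0.23 (fold 0.633 to 1.24). The edgeR adjusted p was 0.897 for SNX1, 0.959 for SNX2 and 0.704 for SNX6.

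Of the cargo adaptors, SNX3 (chromosome 6, 108211222 to 108261260, minus strand) had 54.6, 66.8 and 123 CPM in GST 1, 2 and 3. It had 81.2, 99.8 and 86.1 CPM in GST-Ferry 1, 2 and 3, above GST 1 and GST 2 and below GST 3 as for VPS35. For SNX3 the log2 fold change was 0.13 ± 0.28 (fold 0.723 to 1.65, edgeR adjusted p = 0.829). SNX27 (chromosome 1, 151612006 to 151699091, plus strand) had 126.5, 99.0 and 137 CPM with GST 1, 2 and 3 and 131, 118.5 and 118.7 CPM with GST-Ferry 1, 2 and 3. All GST-Ferry values of SNX27 lay inside the range of GST. Its log2 fold change was 0.03 ± 0.20 (fold 0.76 to 1.36, edgeR adjusted p = 0.957).

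GST 3 was the highest GST library for 8 of the 10 members and the highest of all 6 libraries for 7. Without GST 3, the log2 fold change was 0.53 ± 0.17 for VPS35, 0.57 ± 0.20 for VPS26A and 0.52 ± 0.17 for SNX3, more than 1.5 times the values with all libraries. Some other omissions moved them the other way: VPS35 was at 0.07 without GST 1 and 0.08 without GST-Ferry 2, VPS26A at -0.05 and -0.12, and SNX3 at -0.11 and 0.00. Without GST-Ferry 1 all 3 rose, to 0.34 for VPS35, 0.29 for VPS26A and 0.20 for SNX3. Without GST 3 none of the 3 passed (edgeR adjusted p = 0.0631, 0.0852 and 0.0647), and VPS26B had 0.43 ± 0.18 (adjusted p = 0.155). Over all genes, 4.45% were enriched and 3.54% depleted without GST 3, while 0 members were called.

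With GST 3 and GST-Ferry 1 both left out, which leaves 2 libraries a bait, 4 members were called enriched and 0 depleted: VPS35 (log2 fold change 0.66 ± 0.16), VPS26A (0.72 ± 0.18), VPS26B (0.56 ± 0.18) and SNX3 (0.62 ± 0.17). Their edgeR adjusted p-values were 0.00607, 0.0105, 0.0324 and 0.0145. In the same fit 11.5% of all tested genes were enriched and 6.51% depleted. The pair of libraries left out was chosen with their place on the first principal component known. Each differed most from the other libraries of its bait, so leaving both out narrows the spread within baits and these p-values may be too small. VPS29 (-0.13 ± 0.19), SNX1 (-0.10 ± 0.16), SNX2 (0.15 ± 0.17), SNX5 (-0.17 ± 0.16), SNX6 (0.14 ± 0.16) and SNX27 (0.07 ± 0.16) were not called there either.

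**Figure D2:**
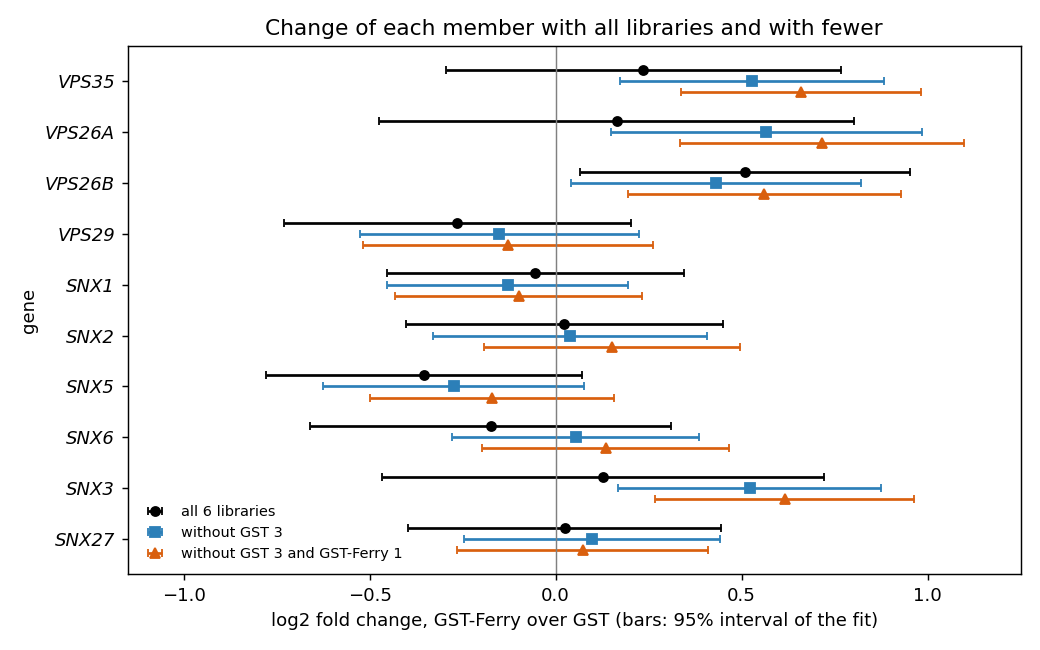
Log2 fold change of GST-Ferry over GST for each member (horizontal axis), with 95% intervals from the edgeR fit, for all 6 libraries (black circles), without GST 3 (blue squares) and without GST 3 and GST-Ferry 1 (orange triangles). With all libraries only the interval of VPS26B excludes 0, and VPS35, VPS26A and SNX3 shift to the right once GST 3 is left out.

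The balance within paralog pairs was taken as a ratio of raw counts inside each library, which does not depend on how libraries are scaled. The log2 ratio of VPS26A to VPS26B was -0.25, 0.28 and 1.18 in GST 1, 2 and 3 and 0.08, 0.35 and -0.11 in GST-Ferry 1, 2 and 3. GST 3 therefore held far more VPS26A relative to VPS26B than any other library, and the other 5 spanned -0.25 to 0.35. The mean difference of -0.30 between baits became 0.09 without GST 3 and -0.63 without GST 1.

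SNX2 exceeded SNX1 in all 6 libraries, with log2 ratios of SNX1 to SNX2 of -0.32, -0.30 and -0.59 in GST 1, 2 and 3 and -0.31, -0.82 and -0.28 in GST-Ferry 1, 2 and 3. SNX5 exceeded SNX6 in all 6, with log2 ratios of 1.24, 1.64 and 1.07 in GST 1, 2 and 3 and 1.06, 1.11 and 1.17 in GST-Ferry 1, 2 and 3. The groups overlapped in all 3 pairs. The differences between baits were -0.30, -0.07 and -0.21 for VPS26A/VPS26B, SNX1/SNX2 and SNX5/SNX6, with two-sided exact permutation p of 0.7, 0.9 and 0.3 (0.9 for each after adjustment over the 3 pairs). With 3 libraries a bait the smallest p this test can give is 0.1. The difference for SNX1/SNX2 was 0.11 without GST-Ferry 2, and that for SNX5/SNX6 was -0.04 without GST 2 and -0.33 without GST 3.

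**Figure D3:**
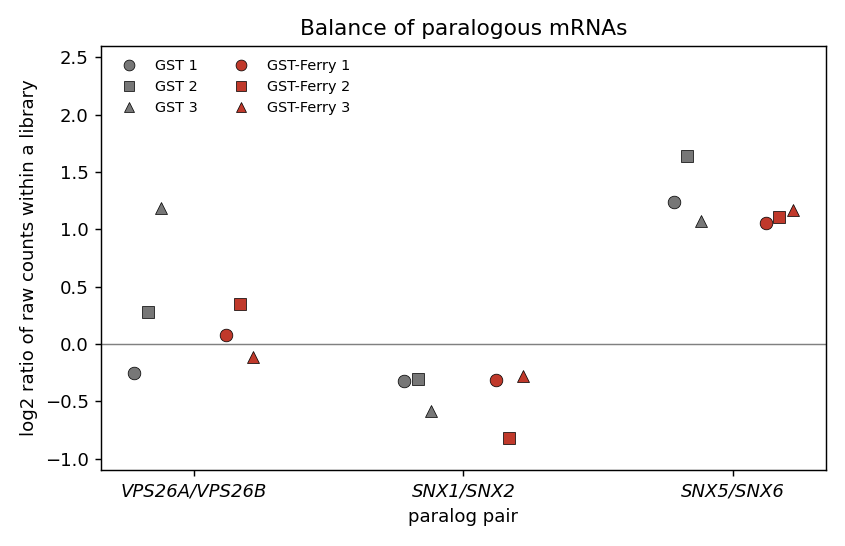
Log2 ratio of raw counts within each library (vertical axis) for 3 paralog pairs, with GST in grey, GST-Ferry in red and marker shape giving the replicate number. GST 3 lies apart at 1.18 for VPS26A/VPS26B, while SNX1/SNX2 is below 0 and SNX5/SNX6 above 1 in every library.

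Levels of different genes were compared as CPM per kb of the principal transcript. On that scale SNX5 was highest, at 96.3 ± 14.9 with GST and 75.4 ± 7.14 with GST-Ferry, and its lowest library (67.6) was above the highest of SNX2 (65.1), though SNX3 reached 70.3 in GST 3. SNX2, VPS29, SNX3, SNX6 and SNX1 followed with GST at 53.1 ± 4.17, 53.0 ± 11.6, 46.5 ± 20.9, 45.0 ± 12.9 and 43.3 ± 3.55, and their ranges over the 6 libraries overlapped, except those of SNX1 (39.8 to 47.3) and SNX2 (47.8 to 65.1). VPS26A had 25.3 ± 11.5, SNX27 18.9 ± 3.05, VPS35 16.0 ± 5.55 and VPS26B 15.9 ± 2.70, and their ranges over the 6 libraries also overlapped. The range of VPS26A (18.2 to 38.55) reached into those of SNX3 and SNX6 as well, which began at 31.1 and 36.1. The scaffold VPS35 and its partner VPS29 thus differed, with all libraries of VPS35 between 12.5 and 22.4 and all of VPS29 between 38.8 and 62.6. SNX5 and SNX2 kept the first and second places on GST-Ferry, and VPS35 took the last. These levels depend on the transcript chosen, 6.79 kb for VPS35 and 1.52 kb for VPS29. Coding GC content ran from 36.2% in VPS26A to 54.3% in VPS26B.

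Other genes of the recycling machinery, in lists chosen by function, gave 0 calls among 77 tested by edgeR. Over all tested genes 0.592% were enriched and 0.0322% depleted, so 0 calls among 77 say little about these lists. Of 8 other nexins with PX and BAR domains, 6 had a fold change above 0 (median 0.16), and 1 was higher and 0 were lower where the unadjusted p was under 0.05. Over all tested genes 11.3% were higher and 8.05% lower at that p. The highest mean CPM over both baits, not scaled by length, were those of SNX9, a dynamin-binding endocytic protein (65.8 ± 3.99 CPM with GST, 69.7 ± 5.74 with GST-Ferry), and SNX30 (59.2 ± 8.03 and 70.4 ± 1.89 CPM). Of 14 other tested PX nexins, 5 were above 0 (median -0.14), with 2 higher and 2 lower at that p. SNX19 had 106 ± 8.70 and 99.0 ± 10.1 CPM, and SNX13 had 117 ± 37.7 CPM on GST and 77.6 ± 6.77 on GST-Ferry (log2 fold change -0.59 ± 0.24, edgeR adjusted p = 0.202). SNX20 and SNX31 did not pass the filter on low counts.

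Commander, which holds the retriever complex and sorts integrins and other cargo that does not use retromer, had 8 of 15 listed genes above 0 (median 0.06). Of these 15, 1 was higher and 0 were lower where the unadjusted p was under 0.05, against 11.3% and 8.05% of all tested genes. COMMD4 had 82.3 ± 28.2 and 112.7 ± 27.5 CPM, and CCDC93 had 93.5 ± 10.4 and 71.9 ± 5.41 CPM with GST and GST-Ferry. The WASH complex, which nucleates actin on endosomes and is recruited by VPS35, had 2 of 6 members above 0 (median -0.02) and 0 in either direction at that p, and 4 were above 0 without GST 2 and 1 without GST 1 or GST-Ferry 2. WASHC4 had 119 ± 39.3 and 91.9 ± 4.66 CPM, and WASHC5 had 71.5 ± 13.9 and 75.5 ± 14.9 CPM. Of 20 cargo mRNAs, 7 were above 0 (median -0.13), or 4 without GST-Ferry 3, with 0 higher and 1 lower at that p. The transferrin receptor TFRC had 238, 259 and 648 CPM in GST 1, 2 and 3 and 266, 243 and 277 CPM in GST-Ferry 1, 2 and 3, so that GST 3 alone was high, and the mannose 6-phosphate receptor IGF2R had 230.0 ± 13.7 and 239 ± 20.0 CPM.

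The regulators and accessory proteins of retromer had 7 of 14 above 0 (4 without GST-Ferry 2), a median of 0.00, and, where the unadjusted p was under 0.05, 4 members higher and 3 lower. Over all tested genes 11.3% were higher and 8.05% lower at that p. RAB7A, the late endosomal GTPase that binds retromer, had 140.3, 125 and 135 CPM in GST 1, 2 and 3 and 187, 284 and 237 CPM in GST-Ferry 1, 2 and 3. Its groups did not overlap, and 14.9% of all tested genes were likewise higher in every GST-Ferry library. The log2 fold change of RAB7A, 0.82 ± 0.20, had an edgeR adjusted p of 0.0765. GCC2, a golgin of the trans-Golgi network, had 144 ± 11.8 and 102 ± 15.5 CPM (log2 fold change -0.49 ± 0.19, edgeR adjusted p = 0.199). EHD1, EHD4 and EHD3, membrane-remodelling ATPases of recycling endosomes that belong to the list and are singled out here after their values were seen, had log2 fold changes of 1.10 ± 0.26, 0.86 ± 0.23 and 0.73 ± 0.25, with edgeR adjusted p of 0.0656, 0.0906 and 0.147. EHD1 had 28.1, 20.7 and 13.3 CPM in GST 1, 2 and 3 and 43.2, 44.2 and 47.0 CPM in GST-Ferry 1, 2 and 3.

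Calls among these accessory genes changed with the test and the libraries. Limma-voom called 0 of the 14, and so did edgeR without GST 2 and without GST-Ferry 1, 2 or 3, each left out alone. Over all genes those fits called 14, 3, 109, 0 and 3 enriched, in that order. DESeq2 called RAB7A, EHD1 and EHD4 enriched, with 3.43% of all genes enriched. Without GST 3, edgeR called RAB7A, EHD1 and EHD4 enriched and GCC2 depleted, where 4.45% of all genes were enriched and 3.54% depleted. Without GST 1 it called EHD1 enriched, where 0.398% of all genes were enriched. With GST 3 and GST-Ferry 1 both left out it called EHD3, RAB7A, EHD4, EHD1 and ARL1 enriched and GCC2 depleted. SNX12 and SNX17 of the 14 other PX nexins and CCDC22 and COMMD7 of the 15 Commander genes were also enriched there. In that fit 11.5% of all genes were enriched and 6.51% depleted.

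**Figure D4:**
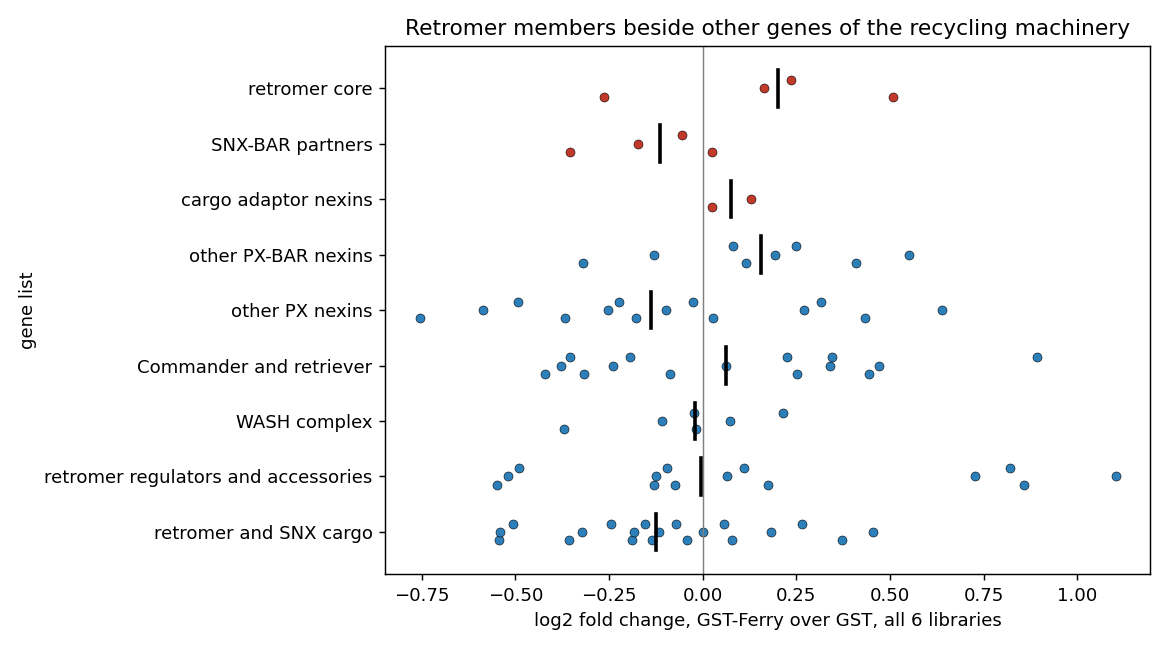
Log2 fold change of GST-Ferry over GST with all 6 libraries (horizontal axis) for every tested gene of 9 lists, with the 10 members in red, other genes in blue and the median of each list as a black bar. The members lie between -0.35 and 0.51, and the accessory list runs from -0.55 to 1.10.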

How the data were processed

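The values are the authors' deposited counts, unnormalised reads per Ensembl gene in each of the 6 libraries, made from strand-specific libraries after depletion of ribosomal RNA, per the labels' protocols. STAR 2.5.2b, bcl2fastq 2.19.1 and the build GRCh38.p13 are named in the submitters' processing notes; the counting program, annotation and strand setting are not given in the sources used here. Symbols came from a table of gene names, and coordinates, exons and transcripts from GENCODE 29 (GRCh38), which held 58503 of the IDs. Genes were filtered with filterByExpr (minimum count 10, minimum total 15), scaled with TMM factors (0.923 to 1.10) and tested with edgeR 4.0.16 (quasi-likelihood, two-sided, no covariate, R 4.3.3), with adjustment over all 15546 genes. CPM use the TMM-scaled library sizes, on which 3 counts equal 0.273 to 1.31 CPM. The 95% intervals come from the same fit. limma 3.58.1 and DESeq2 1.42.0 served as alternatives, beside RLE factors, library sizes alone, no filter, a replicate block, removal of the bait subunit genes, thinning to equal library totals and leaving libraries out. The fit was tested on simulated data. The members and lists were chosen with earlier results of these data known. Named were all members, the 2 genes with the highest mean CPM and every called gene of each other list of recycling genes, and pseudogenes with at least 1% of a member's counts. Cell type markers, FERRY subunits, lncRNAs and NCAPD3 were named outside this rule. Figures were drawn with matplotlib 3.10.9.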

Additional observations from a re-analysis of the deposited data

How the results depend on the processing

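The count of enriched members was 0 with all 6 libraries and under 14 of 15 alternatives, and 4 with GST 3 and GST-Ferry 1 left out together (1754 genes enriched and 992 depleted over all genes); the count of depleted members was 0 under all 15. Over all genes, where 92 were enriched and 5 depleted, the counts were 11 and 0 with RLE size factors, 7 and 0 with library sizes alone, 421 and 323 with no filter on low counts, 534 and 177 with DESeq2, 14 and 0 with limma-voom, and 34 and 3 with every library thinned to the smallest total. Leaving out 1 library at a time gave 0 to 701 enriched and 0 to 558 depleted genes. Without GST-Ferry 2, 0 genes were called at all. Without GST 2 and without GST-Ferry 3, the only genes called were 3 FERRY subunit genes. In these fits 0 member calls cannot show that the members were unchanged, because almost no gene was called. Among the members, the fold changes of VPS35, VPS26B, VPS29, SNX1 and SNX5 kept their direction under all 15 alternatives, and those of VPS26A, SNX2, SNX6, SNX3 and SNX27, none called with all libraries, did so under 11, 11, 13, 12 and 10. With the replicate number as a block 167 genes were enriched and 28 depleted, and 0 members in either direction. The labels tie the numbers to nothing shared, and deviations of same-numbered libraries correlated at 0.24, 0.08 and -0.15, so the numbers were not taken as pairs. With all libraries the 95% interval of VPS26A allows folds from 0.72 to 1.74. The causes of these differences were not tested.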
